A study of Mus musculus with 7 samples.

Results

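Notch receptors are membrane proteins that are cut when a Jagged or Delta-like ligand on a neighbouring cell binds them. The freed intracellular part enters the nucleus, joins the DNA-binding protein Rbpj, and switches on targets such as the Hes and Hey repressors. In the intestinal crypt this pathway keeps progenitors dividing and steers daughter cells away from the secretory fate, and in blood vessels Dll4 and Notch1 set the balance between tip and stalk cells. The 10 genes described here are 3 targets (Hey1, Heyl, Hes1), 3 receptors (Notch1, Notch2, Notch3), 2 Jagged ligands (Jag1, Jag2) and 2 Delta-like ligands (Dll1, Dll4). They were chosen by symbol as a pathway family. No rule on their values was used, but earlier results of these data were known. All 10 were found among the 43346 genes of the count table.

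RNA was sequenced from whole colon tumors of 7 mice to compare a hematopoietic Dnmt3a deletion with its control. Recipients were wild-type C57BL6/J mice, labelled 8 weeks of age, and 4 tumors came from mice carrying Dnmt3a+/Δ bone marrow (BM) and 3 from mice carrying Dnmt3a+/+ BM. Donors of both groups carried Mx1-Cre and received poly(I:C), so the heterozygous deletion of the floxed Dnmt3a allele was present only in graft-derived cells, and epithelium, endothelium and other host cells of every tumor were of wild-type genotype. All recipients were irradiated and then given 1 injection of azoxymethane (AOM, 10 mg/kg), followed by dextran sulfate sodium (DSS) at 3% in the water for 3 cycles of 1 week, with 2 weeks between cycles. The tumors came from 2 transplant experiments, named BMT18 (Dnmt3a+/+ replicates 1 and 2, Dnmt3a+/Δ replicates 1 and 2) and BMT8 (Dnmt3a+/+ replicate 3, Dnmt3a+/Δ replicates 3 and 4). The deposited names of Dnmt3a+/Δ replicates 2, 3 and 4 carry a further suffix, and no other name does. Its meaning is not given in the labels, so what it marks cannot be told apart from the graft for these tumors.

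Total counts lay between 38472738 and 64314999 per tumor, and values are given as CPM, the share of a library's counts scaled to a fixed total, with TMM correction of library sizes for composition. Dnmt3a itself was at 20.2 to 24.3 CPM with Dnmt3a+/+ BM and at 22.0 to 43.0 CPM with Dnmt3a+/Δ BM, and since only graft cells carry the deletion a whole tumor does not check the labels. Cell type markers were read to describe the tissue in each sample, and they do not check that a sample is tumor. Epcam, an epithelial adhesion molecule, stood at 1543 to 3239 CPM in the 7 tumors. Markers of stratified squamous epithelium, which is not a colonic tissue, summed to 21588 CPM in Dnmt3a+/+ replicate 1 and 23231 CPM in Dnmt3a+/Δ replicate 1, that is 2.16% and 2.32% of all counts, against 3974 to 5194 CPM in 4 other tumors and 263 CPM in Dnmt3a+/Δ replicate 2. Krt5, a basal keratin, was at 5158 and 5963 CPM in the first 2 of these and at 0.0815 CPM in the last. Summed endothelial markers ran from 29.3 to 64.1 CPM with Dnmt3a+/+ BM and were 58.5, 371, 90.7 and 144 CPM in Dnmt3a+/Δ replicates 1 to 4. In whole tumors, fewer cells of a type and less RNA per cell cannot be told apart.

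The sequences just before the RefSeq starts of 4 of the genes are shown because 3 of them, Notch2, Notch3 and Jag1, reached their highest level in the same 2 tumors, while Dll4 was lowest in those 2. Each run ends at the start or where an annotated exon begins, reads 5′ to 3′ on the gene's strand in build GRCm38.p6, and has the GC boxes (GGGCGG on either strand) in capitals. The Notch2 run is chr3:98013288-98013526 (+), the Notch3 run chr17:32166891-32167140 (-), the Jag1 run chr2:137116645-137116770 (-), and the Dll4 run chr2:119325565-119325783 (+).
Notch2: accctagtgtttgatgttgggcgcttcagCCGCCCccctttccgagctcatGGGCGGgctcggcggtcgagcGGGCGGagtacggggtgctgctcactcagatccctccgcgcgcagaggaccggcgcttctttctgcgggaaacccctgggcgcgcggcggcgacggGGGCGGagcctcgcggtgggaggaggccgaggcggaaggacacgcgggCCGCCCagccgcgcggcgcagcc
Notch3: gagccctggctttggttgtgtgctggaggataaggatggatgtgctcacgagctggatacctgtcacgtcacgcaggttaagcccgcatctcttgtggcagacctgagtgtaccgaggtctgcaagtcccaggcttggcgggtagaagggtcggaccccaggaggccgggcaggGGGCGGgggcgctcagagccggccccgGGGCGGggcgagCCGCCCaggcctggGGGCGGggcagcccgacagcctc
Jag1: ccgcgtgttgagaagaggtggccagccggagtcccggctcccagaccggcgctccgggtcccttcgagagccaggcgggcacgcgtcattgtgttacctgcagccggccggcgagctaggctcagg
Dll4: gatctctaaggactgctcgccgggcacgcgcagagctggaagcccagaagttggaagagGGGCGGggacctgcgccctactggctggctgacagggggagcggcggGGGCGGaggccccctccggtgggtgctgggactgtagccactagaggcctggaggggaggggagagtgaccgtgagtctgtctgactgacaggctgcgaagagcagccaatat

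The printed Notch2 run holds 5 GC boxes, the Notch3 run 4, the Dll4 run 2, and the Jag1 run 0. RefSeq windows of 300 bases, from 250 before to 50 after the start, were matched for 7 of the 10 genes, with 8 windows in all. These 7 are the receptors and ligands. The targets Hey1, Heyl and Hes1 had no matched window, so the motif counts below say nothing about them. A GC box was found in the windows of 5 of the 7, against 38.2% of 27025 mouse genes with windows of the same length. It is thus a common feature that Dll4 shares with Notch2, Notch3 and Jag2 (5 boxes in its window) and that Jag1 lacks. The letters TGGGAA, the core recognised by Rbpj, were in 0 of the 7 genes' windows on either strand, against 28.3% of all genes, and the longer form GTGGGAA, which contains it, was also in 0, against 7.25%. The E-box CACGTG was in 0, against 8.09%. GC content was 86.0% for the Jag2 window, 73.0% for Notch2 and 55.7% for Jag1, beside a median of 52.7% over all windows.

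Per length, Hes1 was the most abundant of the 10 genes in every tumor. Levels per kilobase of merged exons averaged 33.3 ± 9.22 CPM per kb for Hes1 (SD, n = 7), followed by 5.66 ± 3.45 for Jag1, 3.77 ± 1.11 for Dll4, 3.76 ± 1.63 for Jag2, 3.47 ± 1.82 for Notch2 and 3.36 ± 1.21 for Notch1. Below these stood Notch3 at 2.02 ± 2.08, Dll1 at 1.46 ± 0.48, Hey1 at 1.07 ± 1.39 and Heyl at 0.045 ± 0.061 CPM per kb. Hes1 was above Jag1 in 7 of 7 tumors, and Hey1 above Heyl in 7 of 7. Between these ends the neighbours in the order did not keep their rank: Jag1 was above Dll4 in 3 of 7 tumors, Dll4 above Jag2 in 5, Jag2 above Notch2 in 4, Notch2 above Notch1 in 3, Notch1 above Notch3 in 5, Notch3 above Dll1 in 3, and Dll1 above Hey1 in 5. Merged exon length is only a proxy for the length of the transcripts present.

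**Figure D1:**
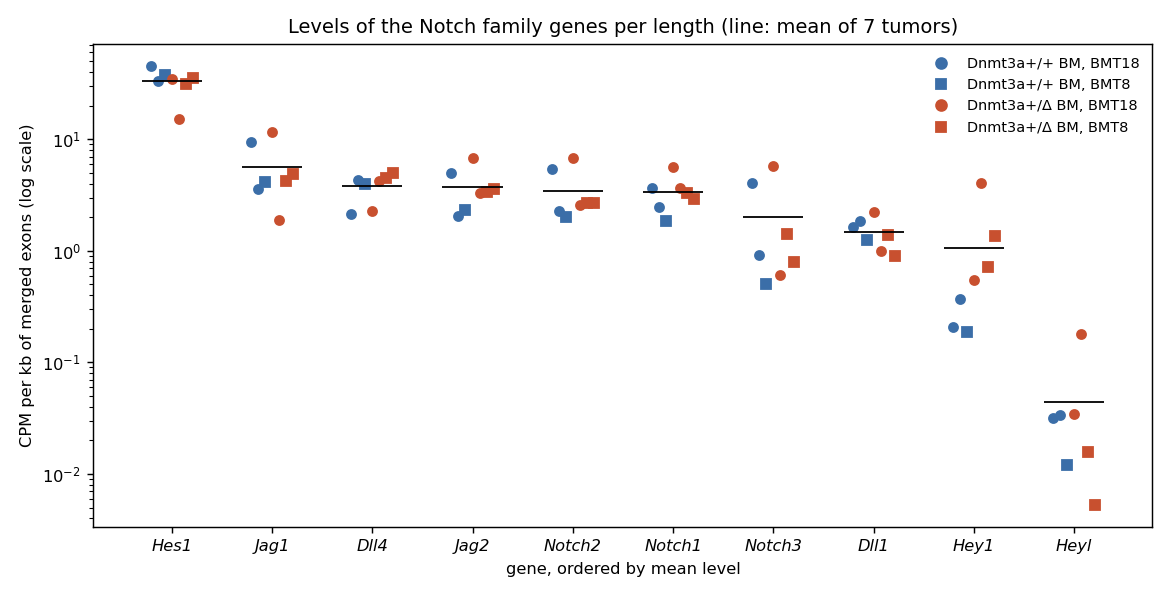
Levels of the 10 genes in CPM per kb of merged exons on a log axis, with 1 point per tumor (blue, Dnmt3a+/+ BM, red, Dnmt3a+/Δ BM, circles, BMT18, squares, BMT8) and a line at the mean of 7 tumors. Hes1 lies above every other gene in each tumor and Heyl below, while the points of Jag1, Dll4, Jag2, Notch2 and Notch1 overlap. Those points lie between 1.84 (Notch1) and 11.5 CPM per kb (Jag1).

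Among the targets, Hey1, a bHLH repressor used by arterial endothelium and many progenitor cells, showed the widest graft difference of the tested members. Hey1 (chr3:8663359-8667256, minus strand, GRCm38) was at 0.67, 1.22 and 0.61 CPM in Dnmt3a+/+ replicates 1 to 3 and at 1.77, 13.3, 2.34 and 4.46 CPM in Dnmt3a+/Δ replicates 1 to 4. The groups did not overlap, and replicate 2 held 60.8% of the Dnmt3a+/Δ group's CPM. The raw counts were 25, 78 and 20 against 71, 653, 115 and 165, so each value rests on at least 20 reads. Group means were 0.83 ± 0.33 CPM (SD, n = 3) and 5.47 ± 5.35 CPM (SD, n = 4). The log2 fold change was 2.70 (SE 0.80), a 6.50-fold difference, with an unadjusted p of 0.010 and an adjusted p of 0.377 by the edgeR quasi-likelihood test, adjusted over 15810 genes after Benjamini and Hochberg. A call needed an adjusted p below 0.05 together with a log2 fold change beyond 1 in either direction, and Hey1 did not meet it. Nor did any of the 15810 genes (lowest adjusted p 0.361, edgeR).

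Within experiments, the log2 ratio of mean Hey1 CPM was 3.00 in BMT18, or 0.91 there without Dnmt3a+/Δ replicate 2, and 2.47 in BMT8, which has 1 control tumor. Without Dnmt3a+/Δ replicate 2 its log2 fold change was 1.79 (SE 0.51, unadjusted p = 0.010, adjusted p = 0.553, edgeR). DESeq2 gave a log2 fold change of 2.71 and called Hey1 at an adjusted p of 0.0121, beside 302 of 15936 genes (1.9%) called by that tool. With each tumor left out in turn DESeq2 called Hey1 in 4 of 7 fits, with adjusted p from 0.00065 to 0.0896, and did not call it without Dnmt3a+/+ replicate 1, Dnmt3a+/+ replicate 3 or Dnmt3a+/Δ replicate 2. Dnmt3a+/Δ replicate 2, the tumor highest in Hey1, was also highest in 13 of 16 endothelial markers. All 16 endothelial markers were higher with Dnmt3a+/Δ BM. Of these, 11 were at an unadjusted p under 0.05 (edgeR), beside 5.83% of all genes on the higher side. Another count, of those without overlap between groups, was 7, beside 6.12%. No endothelial marker was at 0 in any tumor. Pecam1, a pan-endothelial adhesion molecule, was at 4.49, 5.21 and 8.14 CPM against 9.16 to 30.8 CPM. Summed fibroblast markers were 1018 CPM in Dnmt3a+/Δ replicate 2 and 162 to 363 CPM in the other 6 tumors. The part of endothelial or stromal RNA in the Hey1 difference was not tested.

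Heyl, a relative of Hey1 known from vascular smooth muscle and pericytes, was near the detection limit. It was at 0.16, 0.17 and 0.061 CPM with Dnmt3a+/+ BM and at 0.17, 0.92, 0.081 and 0.027 CPM with Dnmt3a+/Δ BM, from 1 to 45 reads, and too low for the edgeR test. Its single high tumor was again Dnmt3a+/Δ replicate 2, and the groups overlapped. Of 12 pericyte and smooth muscle markers 5 were highest in that tumor, among them the pericyte gene Rgs5 at 44.1 CPM against 2.05 to 9.98 CPM in the others, but the sum of the 12 there, 367 CPM, was below the 623 to 1195 CPM of 4 other tumors. Their part in the Heyl value was not tested. DESeq2, which tested Heyl, gave a log2 fold change of 1.20 (SE 1.21, adjusted p = 0.770).

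Hes1, the repressor that holds back the secretory programme in crypt progenitors, pointed the other way. Hes1 (chr16:30064384-30067796, plus strand) was at 92.4, 68.3 and 77.1 CPM with Dnmt3a+/+ BM and at 70.7, 30.7, 63.3 and 72.2 CPM with Dnmt3a+/Δ BM. Dnmt3a+/Δ replicate 2 was the lowest of the 7 and the other Dnmt3a+/Δ tumors lay within or just under the control range. The log2 fold change was -0.42 (SE 0.29, unadjusted p = 0.190, adjusted p = 0.620, edgeR), and -0.18 without Dnmt3a+/Δ replicate 2. That tumor also had the lowest sum of colon epithelial markers, 10931 CPM against 15354 to 39386 CPM in the others, and the part of this in the Hes1 value was not tested. Hes1 and Hey1 thus stood at opposite ends in this tumor, and across the 7 tumors their log2 CPM had a Pearson r of -0.86, a description in which a single tumor carries much of the range.

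**Figure D2:**
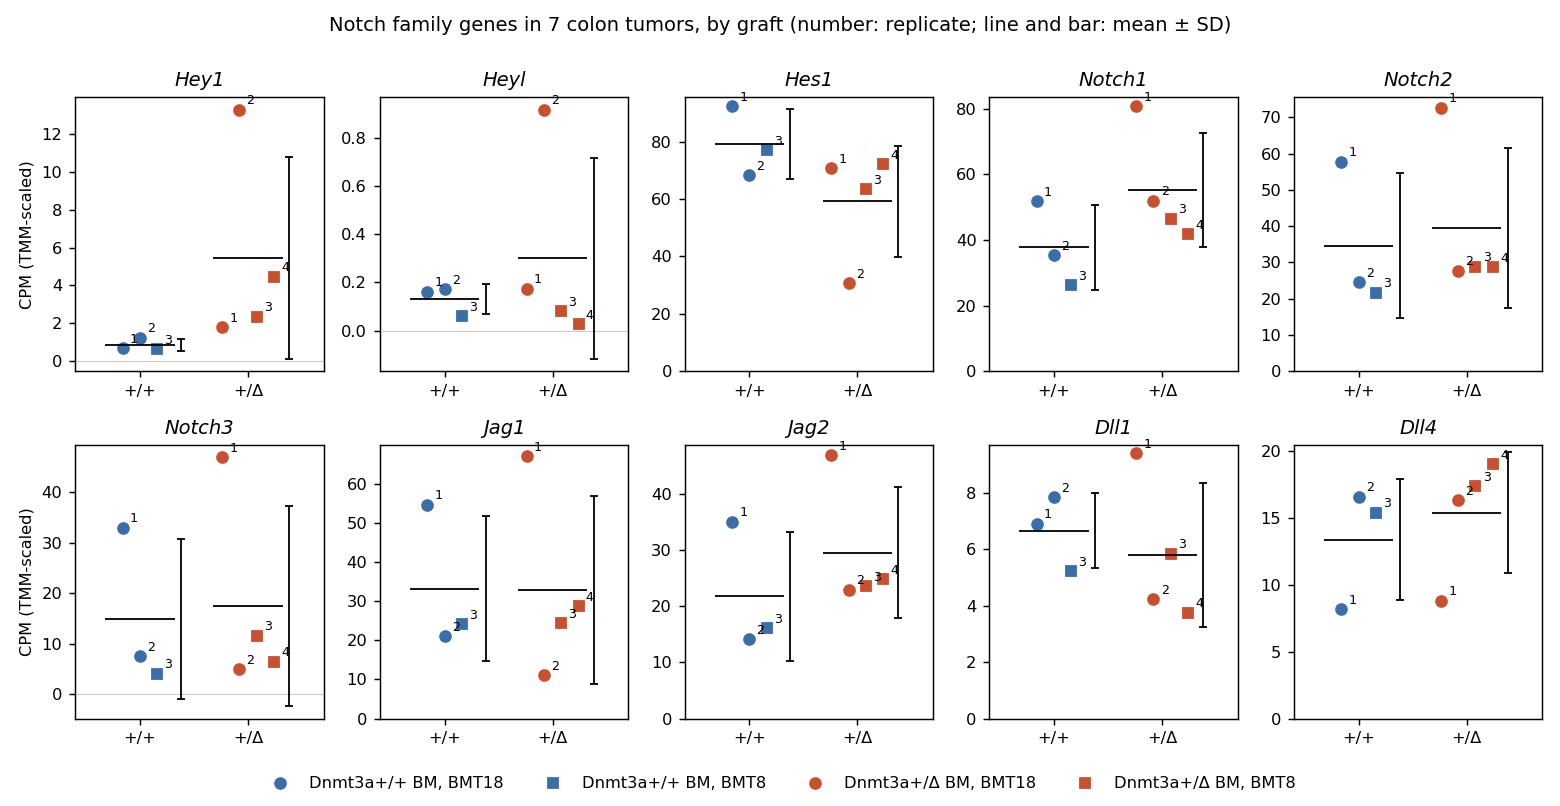
TMM-scaled CPM of the 10 genes in each tumor (blue, 3 tumors with Dnmt3a+/+ BM, red, 4 with Dnmt3a+/Δ BM, circles, BMT18, squares, BMT8, digits, replicate numbers), with the group mean as a line and the SD as a bar, on a separate linear axis per gene. Hey1 alone has no overlap between groups, and replicate 1 of each group is high in Notch2, Notch3, Jag1 and Jag2 and low in Dll4.

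All 3 receptors were fitted higher with Dnmt3a+/Δ BM, and 0 of 3 reached an unadjusted p under 0.05. Notch1, the receptor of most epithelial and endothelial Notch signaling, lies at chr2:26457903-26516663 on the minus strand and came closest. It was at 51.9, 35.3 and 26.2 CPM with Dnmt3a+/+ BM and at 80.7, 52.0, 46.5 and 41.7 CPM with Dnmt3a+/Δ BM. The groups overlapped only through Dnmt3a+/+ replicate 1, which lay above 2 of the 4 Dnmt3a+/Δ tumors. The log2 fold change was 0.55 (SE 0.30, unadjusted p = 0.111, adjusted p = 0.536, edgeR), and it was 0.32 without Dnmt3a+/Δ replicate 1 and 0.84 without Dnmt3a+/+ replicate 1. The log2 ratio of mean CPM was 0.61 in BMT18 and 0.75 in BMT8, and the fit with the experiment as a covariate gave 0.66 (SE 0.21, unadjusted p = 0.018, adjusted p = 0.278, edgeR). Antisense transcripts 0610009E02Rik and Gm13568 overlap Notch1, with 1099 and 217 counts over all 7 tumors, and the strand setting of the counting is not given in the sources used here.

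Notch2 (chr3:98013527-98150361, plus strand), which acts beside Notch1 in crypt cells, was at 57.8, 24.5 and 21.6 CPM with Dnmt3a+/+ BM and at 72.7, 27.7, 28.8 and 28.7 CPM with Dnmt3a+/Δ BM. Replicate 1 stood above the rest in both groups, and the remaining 5 tumors kept within 21.6 to 28.8 CPM. The log2 fold change was 0.19 (SE 0.48, unadjusted p = 0.705, adjusted p = 0.924, edgeR), and it moved to -0.28 without Dnmt3a+/Δ replicate 1 and to 0.77 without Dnmt3a+/+ replicate 1.

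Notch3 (chr17:32120820-32166852, minus strand) is best known from vascular smooth muscle and pericytes. It was at 33.0, 7.43 and 4.04 CPM with Dnmt3a+/+ BM and at 47.0, 4.93, 11.5 and 6.38 CPM with Dnmt3a+/Δ BM. The same 2 tumors were the high ones, and the other 5 lay between 4.04 and 11.5 CPM. The log2 fold change was 0.24 (SE 0.97, unadjusted p = 0.813, adjusted p = 0.955, edgeR), and it ran from -0.95 to 1.60 as Dnmt3a+/Δ replicate 1 or Dnmt3a+/+ replicate 1 was left out. Summed pericyte and smooth muscle markers were 936, 797 and 39.0 CPM with Dnmt3a+/+ BM and 623, 367, 1195 and 372 CPM with Dnmt3a+/Δ BM, an order that differed from that of Notch3.

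The Jagged ligands had the same profile. Jag1 (chr2:137081456-137116644, minus strand), a ligand expressed in vessel walls and in many epithelia, was at 54.6, 21.0 and 24.1 CPM with Dnmt3a+/+ BM and at 67.0, 11.1, 24.4 and 28.7 CPM with Dnmt3a+/Δ BM. Its log2 fold change was -0.018 (SE 0.60, unadjusted p = 0.977, adjusted p = 0.995, edgeR), that is, near 0. Library-size scaling gave 0.15, where the median of all genes moved up by 0.21, and RLE scaling gave 0.0053, where it moved up by 0.015. Jag2 (chr12:112907819-112929776, minus strand), a ligand found in basal layers of stratified epithelia, was at 35.0, 14.1 and 16.1 CPM with Dnmt3a+/+ BM and at 46.9, 22.9, 23.6 and 24.8 CPM with Dnmt3a+/Δ BM. As for Notch1, the groups overlapped only through Dnmt3a+/+ replicate 1. The Jag2 log2 fold change was 0.44 (SE 0.40, unadjusted p = 0.302, adjusted p = 0.715, edgeR), and it was 0.14 without Dnmt3a+/Δ replicate 1 and 0.96 without Dnmt3a+/+ replicate 1.

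Notch2, Notch3, Jag1 and Jag2 all had Dnmt3a+/Δ replicate 1 and Dnmt3a+/+ replicate 1 as their 2 highest tumors, as did 8 of 8 markers of stratified squamous epithelium. Of these 8 markers 4 had positive and 4 negative log2 fold changes, and 0 reached an unadjusted p under 0.05. The part of squamous tissue in the levels of these 4 genes was not tested. Notch1 was also highest in Dnmt3a+/Δ replicate 1, but its next tumors, Dnmt3a+/Δ replicate 2 at 52.0 CPM and Dnmt3a+/+ replicate 1 at 51.9 CPM, were level. Without both tumors numbered 1, a comparison of 3 against 2 chosen after the values were seen, Notch1 had a log2 fold change of 0.63 (SE 0.24, unadjusted p = 0.038), Jag2 of 0.68 (SE 0.21, unadjusted p = 0.018), Notch2 of 0.32 (SE 0.20, unadjusted p = 0.158), Notch3 of 0.43 (SE 0.52, unadjusted p = 0.445) and Jag1 of -0.056 (SE 0.41, unadjusted p = 0.895), with adjusted p from 0.492 to 0.978 in edgeR. In that comparison 3 of 9 members, Hey1 included, were at an unadjusted p under 0.05, beside 8.85% of all genes, and 4 of 9 did not overlap between groups, all of them higher with Dnmt3a+/Δ BM, beside 28.0% of all genes in either direction and 14.7% higher.

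**Figure D3:**
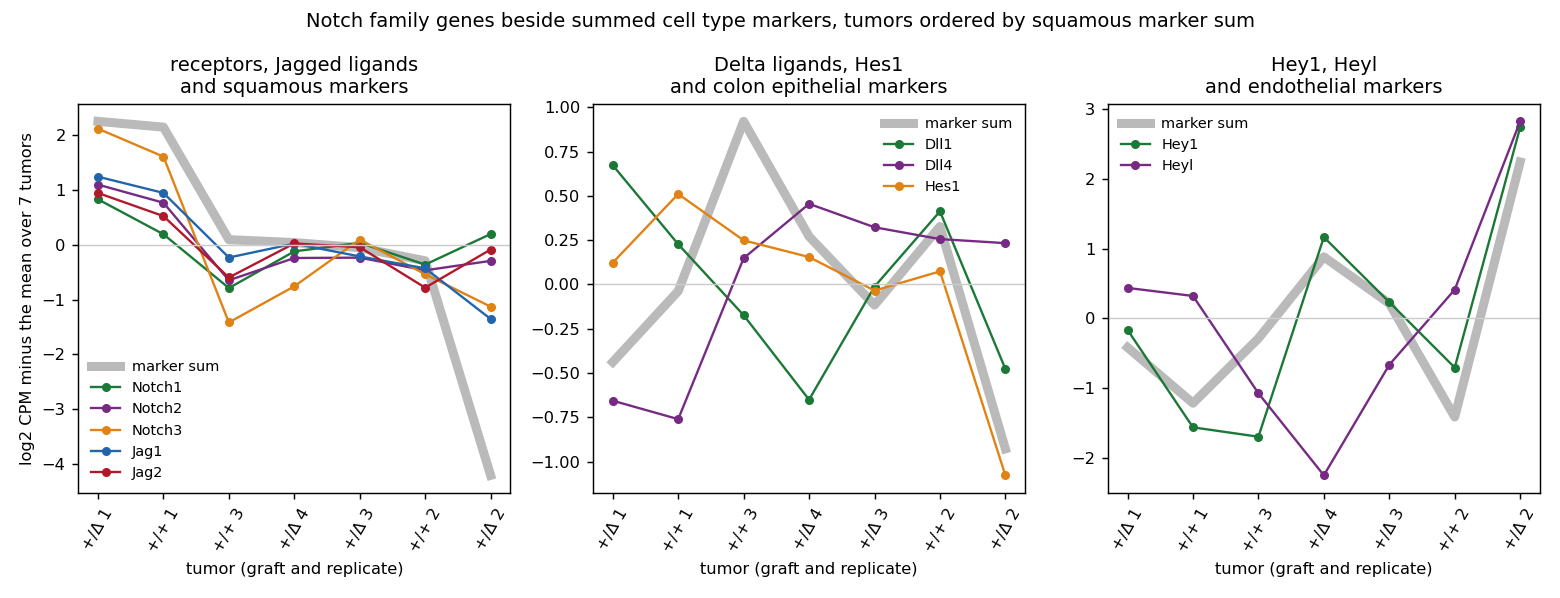
Log2 CPM of the 10 genes in each tumor, minus the gene's mean over the 7 tumors, beside the summed markers of a cell type treated the same way (thick grey line), with tumors ordered from the highest to the lowest squamous marker sum (+/+, Dnmt3a+/+ BM, +/Δ, Dnmt3a+/Δ BM). Notch2, Notch3, Jag1 and Jag2 peak with the squamous markers in replicate 1 of both groups, Hey1 and Heyl peak with the endothelial markers in Dnmt3a+/Δ replicate 2, and Dll4 is lowest in both tumors numbered 1.

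Neither Delta-like ligand had the 2 tumors numbered 1 as its 2 highest, but Dll1 shared part of this profile and Dll4 ran opposite to it. Dll1 was highest in Dnmt3a+/Δ replicate 1 and had a Pearson r of 0.73 with Notch3. Dll1 (chr17:15367354-15376872, minus strand), a ligand of secretory progenitors in the crypt, was at 6.90, 7.85 and 5.23 CPM with Dnmt3a+/+ BM and at 9.41, 4.24, 5.85 and 3.76 CPM with Dnmt3a+/Δ BM, with a log2 fold change of -0.20 (SE 0.38, unadjusted p = 0.614, adjusted p = 0.891, edgeR). It was -0.51 without Dnmt3a+/Δ replicate 1 and -0.037 without Dnmt3a+/Δ replicate 4. The highest and the lowest Dll1 values were both in the Dnmt3a+/Δ group, which enclosed the controls. Dll4 (chr2:119325784-119335962, plus strand), a ligand of crypt secretory cells and of endothelial tip cells, was at 8.19, 16.6 and 15.4 CPM with Dnmt3a+/+ BM and at 8.81, 16.3, 17.4 and 19.0 CPM with Dnmt3a+/Δ BM. Its 2 lowest tumors were those numbered 1, and the other 5 lay within 15.4 to 19.0 CPM in both groups. The log2 fold change was 0.20 (SE 0.35, unadjusted p = 0.581, adjusted p = 0.876, edgeR), and -0.060 without Dnmt3a+/+ replicate 1. Dll4 in Dnmt3a+/Δ replicate 2, the tumor highest in endothelial markers, was thus inside the range of the other tumors, unlike Hey1. Gm14207, an antisense transcript with 1023 counts in total, overlaps Dll4.

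Over the family, 6 of the 9 tested members had positive and 3 negative log2 fold changes, and the median was 0.20 beside 0.0025 over all 15810 genes tested. No member was called by edgeR (0.0% of all genes called, lowest adjusted p 0.361), and 1 of 9, Hey1, was at an unadjusted p under 0.05, beside 11.0% of all genes. Hey1 was also the single member without overlap between groups, beside 12.4% of all genes, or 6.12% when only higher ones are counted. These shares are close to the background and give no result about the family. Scaling by library size only moved the median of all genes by 0.21 on the log2 scale and Notch1 to 0.75 (unadjusted p = 0.049, adjusted p = 0.399, edgeR).

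The difference between experiments was tested as a graft by experiment interaction, and 0 of 9 members had an unadjusted p under 0.05 in edgeR (4.62% of all genes) or in DESeq2 (6.23%). The interaction of Hey1 was -0.52 on the log2 scale, BMT8 minus BMT18 (SE 1.55, unadjusted p = 0.750), and that of Hes1 0.48 (SE 0.64, unadjusted p = 0.485), both at an adjusted p of 1.00 in edgeR. With 3 and 4 tumors in the experiments, these standard errors leave wide room on either side.

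The members differed in how much they varied among tumors, whatever the graft. The SD of log2 CPM over the 7 tumors was 1.54 for Hey1, larger than for 95.0% of the tested genes, and 1.36 for Notch3, larger than for 93.0%. Jag1 followed at 0.87, Notch2 at 0.66, Jag2 at 0.60, Notch1 at 0.51, Hes1 at 0.50, Dll4 at 0.49 and Dll1 at 0.47, beside a median of 0.42 over all genes. Notch2 and Notch3 had a Pearson r of 0.96 across the 7 tumors, Jag2 and Notch2 0.93, and Jag1 and Notch3 0.87. Dll4 had r values of -0.90 with Notch2, -0.87 with Notch3 and 0.45 with Hey1. Those of Dll1 were 0.73 with Notch3, 0.62 with Jag1, 0.60 with Notch2 and 0.33 with Jag2, but -0.57 with Hey1 and -0.67 with Dll4. These correlations describe 7 points from the same libraries, in which the 2 tumors numbered 1 lie apart.

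Outside the pathway, the tested genes with the profile most like that of Hey1 over the 7 tumors were Atrx (r = 0.988), Pip5k1c (0.986) and Sypl (0.983). Those of Notch1 were Dip2b (r = 0.993), Gm19589 (0.981) and Phtf1 (0.974). Those of Notch2 were Fam198b (r = 0.998), Marveld1 (0.995) and Blmh (0.994), and those of Notch3 were Arhgef4 (0.993), Pglyrp4 (0.993) and Frmd6 (0.993). Jag1 was followed most closely by Moxd1 (r = 0.996), Ids (0.994) and Slitrk6 (0.992), and Jag2 by Ehd2 (0.992), Cav2 (0.987) and Ltbp4 (0.986). For Hes1 these were Tmem141 (r = 0.995), Wfdc2 (0.993) and Zfp119b (0.989), for Dll1 they included Sprr1b (0.989) and Myom2 (0.984), and for Dll4 Gm12191 (0.977), Mepce (0.970) and BC037034 (0.965). Each is the top of 15810 correlations over 7 tumors and is a description.

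The rest of the pathway was followed through 50 further genes listed by role, of which 45 passed the filter on low counts and Dll3, Hes3, Hes5, Hes7 and Hey2 did not. Positive log2 fold changes were fitted for 24 of the 45 and negative ones for 21, the median was 0.030, edgeR called 0, and DESeq2 called 1, Neurl1a. An unadjusted p under 0.05 was reached by 3 higher and 2 lower genes, beside 5.83% and 5.2% of all genes, and 3 higher and 2 lower genes did not overlap between groups, beside 6.12% and 6.32%.

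Lfng, a glycosyltransferase that adds sugars to Notch and shifts its ligand preference, was at 18.5, 24.2 and 17.8 CPM with Dnmt3a+/+ BM and at 26.0, 36.3, 30.6 and 27.8 CPM with Dnmt3a+/Δ BM. The groups did not overlap, and the log2 fold change was 0.58 (SE 0.19, unadjusted p = 0.016, adjusted p = 0.392, edgeR). Neurl1a, a Neuralized ubiquitin ligase of the kind that acts on ligands, was at 4.46, 2.15 and 3.61 CPM against 5.04, 32.3, 12.6 and 9.33 CPM. It too had no overlap and was highest in Dnmt3a+/Δ replicate 2, with a log2 fold change of 2.12 (SE 0.65, unadjusted p = 0.012, adjusted p = 0.383, edgeR), 1.43 without that tumor, and an adjusted p of 0.0248 in DESeq2.

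Among the subunits of γ-secretase, the protease that frees the intracellular part of Notch, Aph1a was at 292, 284 and 311 CPM with Dnmt3a+/+ BM and at 228, 164, 226 and 226 CPM with Dnmt3a+/Δ BM. The groups did not overlap, and the log2 fold change was -0.49 (SE 0.17, unadjusted p = 0.019, adjusted p = 0.404, edgeR). Of the 9 genes of receptor cleavage, 5 were fitted higher and 4 lower. Of 12 colon epithelial markers 11 were fitted lower with Dnmt3a+/Δ BM, with sums of 15354, 10931, 19190 and 25099 CPM against 20266, 26100 and 39386 CPM, and their part in the Aph1a value was not tested.

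**Figure D4:**
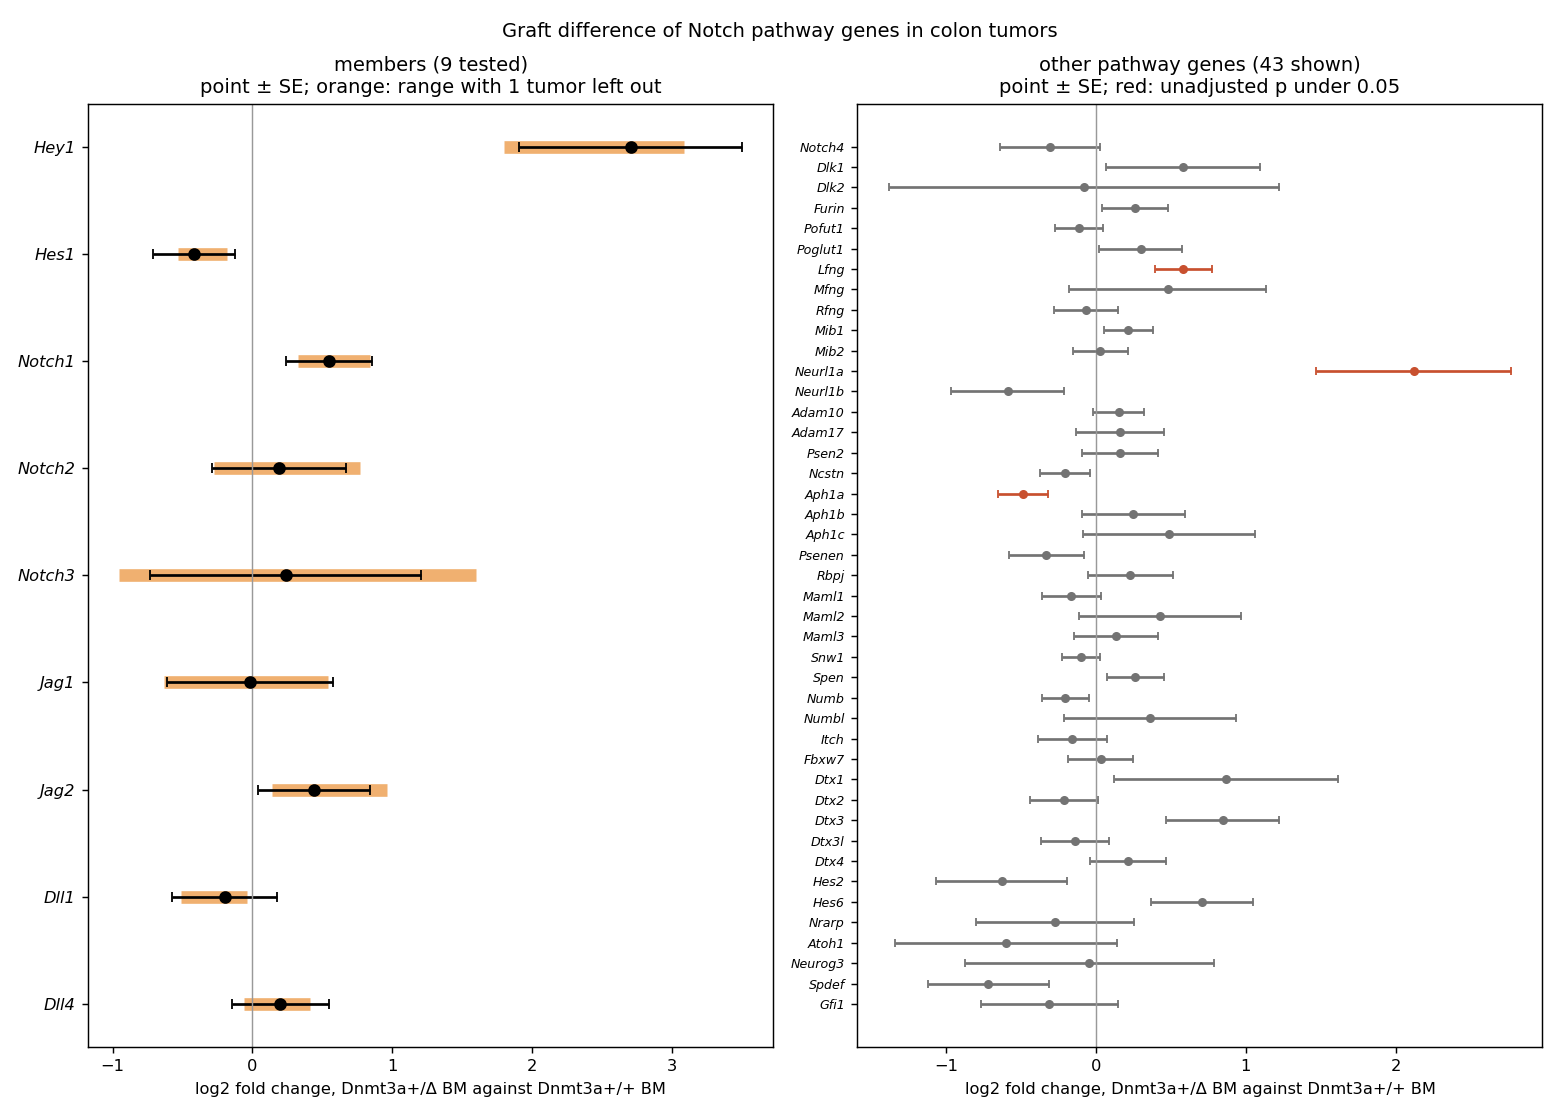
Log2 fold change of each tested gene, Dnmt3a+/Δ BM against Dnmt3a+/+ BM, with its standard error from edgeR, for the 9 members (left, with the range over 7 fits that each leave out 1 tumor in orange) and for 43 of the 45 other tested pathway genes ordered by role (right, red at an unadjusted p under 0.05). The ranges of Notch2, Notch3, Jag1 and Dll4 cross 0, that of Hey1 runs from 1.79 to 3.08, and 0 genes passed an adjusted p under 0.05.

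Most of the other named genes were the most abundant of their role. Furin, which matures the receptors, had a log2 fold change of 0.26 (SE 0.22), Mib1, the main ligase that lets ligands be pulled into the sending cell, 0.22 (SE 0.16), Snw1, a cofactor of the nuclear complex, -0.10 (SE 0.12), and Dtx3l, a Deltex-family ligase, -0.14 (SE 0.22). Notch4, a receptor known from endothelium, had -0.31 (SE 0.34), and its interaction with the experiment had an unadjusted p of 0.014 and an adjusted p of 1.00 in edgeR. Hes6, a Hes protein that opposes Hes1, was the most abundant Hes or Hey gene, at 116, 122 and 179 CPM with Dnmt3a+/+ BM and 112, 230, 263 and 302 CPM with Dnmt3a+/Δ BM, a log2 fold change of 0.71 (SE 0.34, unadjusted p = 0.074, adjusted p = 0.491, edgeR). Hes2, a far less abundant Hes gene, did not overlap between groups, at 2.63, 2.45 and 2.42 CPM against 2.37, 0.75, 2.01 and 1.32 CPM, but had a log2 fold change of -0.63 (SE 0.44, unadjusted p = 0.190, edgeR).

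All 4 listed secretory lineage factors were fitted lower with Dnmt3a+/Δ BM, and 0 of 4 reached an unadjusted p under 0.05. Spdef, a goblet cell factor and the most abundant of them, was at 19.4, 27.4 and 16.0 CPM with Dnmt3a+/+ BM and at 15.1, 16.8, 13.8 and 5.11 CPM with Dnmt3a+/Δ BM (log2 fold change -0.72, SE 0.40, unadjusted p = 0.113, adjusted p = 0.539, edgeR). Only Dnmt3a+/Δ replicate 2 overlapped the control range, and Dnmt3a+/Δ replicate 4 was lowest. All 7 goblet cell markers were fitted lower too, 3 of them at an unadjusted p under 0.05 (edgeR), beside 5.2% of all genes on the lower side. Their sums were 3312, 4338 and 1583 CPM against 1710, 2373, 2249 and 659 CPM. Hes1 and the secretory factors were thus both on the lower side with Dnmt3a+/Δ BM, and 0 of these 5 genes differed beyond the spread between tumors.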

How the data were processed

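Poly(A)-enriched RNA of 7 whole tumors (100 ng total RNA, directional kit) was sequenced. Per the labels the reads were processed with Trimmomatic, FastQC, STAR and RSEM against mm10. The deposited values are the authors' estimated counts per gene (100% whole numbers, 1 column per tumor, no normalization), and the annotation release and strand setting are not given in the sources used here. Symbols, positions and exon lengths were taken from GENCODE M21 by Ensembl identifier (42462 of 43346 matched, and rows without a symbol held 0.104% of counts). RSEM divides reads shared by related genes, and rounding was not needed.

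The graft comparison used edgeR 4.0.16 under R 4.3.3, with TMM, filterByExpr and the quasi-likelihood F-test without covariates, and Benjamini-Hochberg adjustment over all genes. SE was the absolute log2 fold change divided by the square root of F. Calls required an adjusted p below 0.05 with a log2 fold change beyond 1 in either direction. Correlations used log2 CPM with a prior count of 2. The script was tested on simulated data. No 2 tumors were duplicates. The comparison was repeated with DESeq2 1.42.0, library-size and RLE scaling, no filter or a stricter one, robust dispersion, the adjusted p alone, the experiment as covariate, the replicate number as a block, BMT18 alone and each tumor left out. Genes named beside the members were pathway genes at an unadjusted p under 0.05, without overlap, or highest in their role, and the 3 nearest profiles per member. The members and lists were chosen with earlier results of these data known, and the GC box was added after the values were seen. A few genes that these rules select are not reported here. Proteins were not analysed here.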

Additional observations from a re-analysis of the deposited data

Results flagged for a closer look

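Of 32 values examined in the group of 4 tumors with Dnmt3a+/Δ BM, 6 had a single tumor far from the other 3. For independent and normally distributed values chance flags about 1 in 20, or 1.6 of 32. The 32 values share 4 libraries and CPM need not be normally distributed, so 1.6 is only a rough guide. Dnmt3a+/Δ replicate 1 stood apart in Notch2 at 72.7 CPM, Notch3 at 47.0 CPM and Jag2 at 46.9 CPM, and these 3 are not independent, since they come from the same library. Dnmt3a+/Δ replicate 2 stood apart in Heyl at 0.92 CPM (45 reads), in Aph1a at 164 CPM, the lowest of the group, and in summed fibroblast markers at 1018 CPM. Hey1 in that tumor, at 13.3 CPM, was not past the limit used. The control group of 3 tumors is too small for the same comparison.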

How the results depend on the processing

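edgeR called 0 members under every alternative, and in the reported fit it called 0 of all 15810 genes. DESeq2 called 1, Hey1, and 0 to 1 with each tumor left out (0 without Dnmt3a+/+ replicate 1, Dnmt3a+/+ replicate 3 or Dnmt3a+/Δ replicate 2), and Neurl1a in 4 of its fits in all. Members at an unadjusted p under 0.05 numbered 1 in the reported fit and 2 with scaling by library size only (12.5% of all genes). They numbered 2 with the experiment as a covariate (Hey1 and Notch1, 14.7% of all genes) and 0 in BMT18 alone (9.46%). Without both tumors numbered 1 they numbered 3 (8.85%), and with each tumor left out 1 to 3. The 3 without Dnmt3a+/+ replicate 1 were Hey1, Notch1 and Jag2, beside 7.84% of all genes. Members without overlap numbered 1 as reported, 4 without both tumors numbered 1 (28.0% of all genes), and 1 to 4 with each tumor left out (4 without Dnmt3a+/+ replicate 1, beside 19.3% of all genes, and 2 without Dnmt3a+/+ replicate 2, beside 17.0%). Pathway genes at an unadjusted p under 0.05 numbered 5 as reported (11.0% of all genes) and 2 without both tumors numbered 1 (8.85%). With each tumor left out they numbered 2 to 7. There were 2 without Dnmt3a+/+ replicate 1 (7.84% of all genes), 3 without Dnmt3a+/+ replicate 2 (5.42%) and 7 without Dnmt3a+/+ replicate 3 (12.2%). Omitting both tumors numbered 1 and combining DESeq2 with left-out tumors were chosen after seeing the data, and the causes of these moves were not tested.

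Some log2 fold changes near 0 changed sign. Jag1 (-0.018) became 0.0040 with DESeq2, 0.15 with scaling by library size only, 0.0053 with RLE scaling, 0.085 with the experiment as a covariate and 0.046 in BMT18 alone, and ran from -0.63 to 0.54 with each tumor left out. Those ranges were -0.28 to 0.77 for Notch2, -0.95 to 1.60 for Notch3, -0.060 to 0.41 for Dll4, -0.22 to 0.020 for Dtx3l and -0.57 to 0.13 for Notch4. Dtx3l became 0.095 with scaling by library size only, 0.016 with the replicate block and 0.20 in BMT18 alone. Notch4 became 0.36 in BMT18 alone, and Snw1 0.10 with scaling by library size only. With DESeq2 and each tumor left out, reversed values were -0.28 and -0.031 for Notch2, -0.94, -0.17 and -0.048 for Notch3, 0.54, 0.28, 0.12 and 0.070 for Jag1, -0.061 for Dll4, 0.038 for Dtx3l and 0.14 for Notch4. Hey1, Hes1, Notch1, Jag2 and Dll1 kept their direction in all 24 alternatives.

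The replicate numbers did not pair the samples. Correlations of deviations between tumors of the same number were 0.568, 0.071 and -0.038 for replicates 1 to 3, and Dnmt3a+/+ replicates 2 and 3 correlated best with another number (0.124 and 0.489). With the replicate block, 4 members were at an unadjusted p under 0.05 (Hes1 0.043, Hey1 0.011, Jag2 0.018, Notch1 0.0050, with adjusted p of at least 0.413, edgeR), beside 11.9% of all genes, 3 pathway genes were, and 0 members were called. Dnmt3a+/Δ replicate 4 has no partner and adds nothing to that fit.

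With 4 against 3 tumors and standard errors of 0.29 to 0.97 on the log2 scale, differences of the size fitted for the members other than Hey1 could not be told from the spread between tumors. For Hey1 the tools differed. edgeR did not call it (adjusted p = 0.377), but edgeR called 0 of 15810 genes (lowest adjusted p 0.361), so this is not particular to Hey1. DESeq2 called it (adjusted p = 0.0121), beside 302 of 15936 genes, but in only 4 of 7 fits with a tumor left out.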
